A study of Mus musculus with 2 samples.

Results

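The genes described here are the interferon-induced and IRF genes of the mouse, followed across the cell types of the aortic arch and across 2 diets. They were chosen by symbol, as genes of the Ifi, Ifit, Ifitm, Isg, Gbp, Oas, Oasl, Irgm and numbered Irf series together with Iigp1, Igtp, Rsad2, Mx1, Mx2 and STAT genes such as Stat2. Of the 31053 genes listed, 72 carried such a symbol, and 64 of these had at least 20 UMIs (unique molecular identifiers, each standing for 1 captured RNA molecule) summed over both libraries. The 8 that did not were Ifi202b, Ifi44l, Gbp10, Oas1d, Oas1e, Oas1f, Oas1h and Ifitm7. Just inside the limit stood Gbp2b with 27 UMIs and Ifit1bl2 with 33, and just outside it Oas1e with 17 and Ifi202b with 11. The members comprised 11 IFIT, ISG and related antiviral effectors, 10 PYHIN genes of the Ifi200 family, 9 IRF transcription factors, 9 guanylate-binding proteins, 7 oligoadenylate synthetases, 6 IFITM membrane proteins, 5 immunity-related GTPases, 2 STAT factors and 5 other Ifi and Isg symbols.

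Both libraries came from 16-week-old male Apoe-/- mice of the C57BL/6 strain, which lack apolipoprotein E and are prone to atherosclerosis. The ND group received the normal diet for 12 weeks and the HFD group a high-fat, high-cholesterol diet for the same time. The aortic arches of 2 mice were pooled for each diet, dissociated with enzymes and sequenced by droplet (10x Genomics) single-cell RNA sequencing, so each diet is 1 library of pooled animals. There was therefore no replicate: no difference between diets was tested, no p-value is given, and the 95% intervals below cover counting error alone.

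Interferons act on cells through receptors coupled to JAK kinases. Type I interferon leads to a complex of STAT proteins and IRF9 that binds the interferon-stimulated response element, and interferon gamma leads to STAT dimers that bind the GAS element and induce further factors such as IRF1. The induced genes include IFIT proteins that bind foreign RNA, the ubiquitin-like modifier ISG15, the antiviral enzyme viperin (Rsad2), synthetases that make the second messenger of RNase L, IFITM proteins that hinder viral entry, PYHIN proteins that bind DNA, and 2 families of large GTPases, the GBPs and the immunity-related GTPases, that attack the vacuoles of intracellular microbes. Some IRFs also work outside the interferon response, among them IRF8 and IRF4 in the development of dendritic and B cells.

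The promoters carried the letters of both elements more often than promoters at large. RefSeq windows on GRCm38.p6, from 250 bases before to 50 bases after each transcript start, were matched for 51 of the 64 members, and the members without a window included Ifi27, Ifi27l2a, Ifi27l2b, Ifi204, Gbp4, Gbp6, Gbp8, Gbp9, Mx1, Oas2 and Iigp1. The core of the response element was searched as GAAANNGAAA, with TTTCNNTTTC on the other strand, and was present in 31 of the 51 members (60.8%) against 3.99% of 27025 genes in the same table. The GAS element was searched as TTCNNNGAA, which reads alike on both strands, and was present in 13 members (25.5%) against 9.55% of all genes. Both were present in 7 members, with overlapping matches in 1 of them, and neither in 14. By role, the response element core was present in 8 of 9 Ifi200 genes, 5 of 5 guanylate-binding proteins, 7 of 10 IFIT, ISG and related effectors and 3 of 4 immunity-related GTPases, but in 1 of 8 IRF genes, of which 3 had a GAS match. A match is a match of letters only.

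The 200 bases before the start of 9 members are shown because the results below turn on these genes, and because they show the arrangements met among the members: GAS alone in the transcription factors Irf1 and Irf8, both elements in the GTPase genes Igtp and Gbp7, and the response element core alone in Gbp2, Isg15, Ifit1, Rsad2 and Ifi205. Each is written 5′ to 3′ on the strand of its gene, with the matches to either motif in capitals. Irf1 lies at chr11:53769814-53770013 on the plus strand, Irf8 at chr8:120736158-120736357 plus, Igtp at chr11:58199356-58199555 plus, Gbp7 at chr3:142530136-142530335 plus, Gbp2 at chr3:142620463-142620662 plus, Isg15 at chr4:156200819-156201018 minus, Ifit1 at chr19:34640689-34640888 plus, Rsad2 at chr12:26456453-26456652 minus and Ifi205 at chr1:174031756-174031955 minus.
Irf1: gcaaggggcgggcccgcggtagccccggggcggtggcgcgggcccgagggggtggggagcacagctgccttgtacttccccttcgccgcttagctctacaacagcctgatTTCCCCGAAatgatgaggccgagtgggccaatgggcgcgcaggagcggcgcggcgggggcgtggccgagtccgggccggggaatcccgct
Irf8: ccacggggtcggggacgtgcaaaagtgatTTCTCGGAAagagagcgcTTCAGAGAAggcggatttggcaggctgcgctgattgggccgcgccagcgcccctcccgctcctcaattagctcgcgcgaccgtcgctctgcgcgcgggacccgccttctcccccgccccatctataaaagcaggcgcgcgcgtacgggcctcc
Igtp: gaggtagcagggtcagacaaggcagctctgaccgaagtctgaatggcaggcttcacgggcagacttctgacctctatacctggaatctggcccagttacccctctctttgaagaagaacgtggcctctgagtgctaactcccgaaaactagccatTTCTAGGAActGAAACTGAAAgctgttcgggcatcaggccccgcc
Gbp7: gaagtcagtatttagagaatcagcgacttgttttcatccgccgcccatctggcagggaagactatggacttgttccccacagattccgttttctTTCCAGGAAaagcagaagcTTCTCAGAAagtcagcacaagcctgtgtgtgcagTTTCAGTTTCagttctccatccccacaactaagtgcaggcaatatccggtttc
Gbp2: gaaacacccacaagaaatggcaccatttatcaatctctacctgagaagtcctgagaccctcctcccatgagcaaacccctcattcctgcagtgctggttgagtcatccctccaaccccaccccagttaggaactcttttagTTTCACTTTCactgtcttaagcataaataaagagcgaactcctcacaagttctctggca
Isg15: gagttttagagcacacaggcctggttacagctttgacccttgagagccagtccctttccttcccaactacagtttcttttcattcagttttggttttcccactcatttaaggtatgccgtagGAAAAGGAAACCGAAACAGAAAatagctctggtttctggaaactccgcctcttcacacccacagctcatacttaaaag
Ifit1: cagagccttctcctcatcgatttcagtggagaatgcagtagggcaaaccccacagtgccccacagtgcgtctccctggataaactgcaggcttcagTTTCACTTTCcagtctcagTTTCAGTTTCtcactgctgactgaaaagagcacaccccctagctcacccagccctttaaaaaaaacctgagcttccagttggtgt
Rsad2: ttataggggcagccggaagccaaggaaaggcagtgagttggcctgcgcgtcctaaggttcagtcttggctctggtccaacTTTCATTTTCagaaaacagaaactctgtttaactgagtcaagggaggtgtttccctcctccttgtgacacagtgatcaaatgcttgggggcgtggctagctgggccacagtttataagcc
Ifi205: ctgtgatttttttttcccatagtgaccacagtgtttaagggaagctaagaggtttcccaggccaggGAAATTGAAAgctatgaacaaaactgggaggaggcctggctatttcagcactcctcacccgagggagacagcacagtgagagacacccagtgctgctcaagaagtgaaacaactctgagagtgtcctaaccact
Isg15 held 3 overlapping matches to the response element core, Ifit1 held 2, and Ifi205 had a further match in its window outside the stretch shown.

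Many members lie side by side in the genome (GENCODE M21 on GRCm38). All 10 Ifi200 genes stood within chr1:173468485-174031810, and 9 guanylate-binding proteins stood in 2 runs, Gbp5, Gbp7, Gbp3, Gbp2b and Gbp2 at chr3:142493978-142638008 and Gbp8, Gbp9, Gbp4 and Gbp6 at chr5:105014150-105293698. Igtp and Irgm2 shared chr11:58199556-58222782, 6 Ifit genes chr19:34550694-34650009, and Irf7 lay with Ifitm1, Ifitm2, Ifitm3, Ifitm5 and Ifitm6 within chr7:140948958-141266481. Because copies within these runs are alike in sequence, and because Igtp overlaps Irgm2, Gbp8 and Gbp9 overlap Gbp4, and Ifi203 and Ifi211 overlap Mndal on the same strand, the split of UMIs between such neighbours is uncertain.

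After the study's limits on genes, UMIs and mitochondrial reads, 5416 ND and 2739 HFD cells were kept, with 27137322 and 17191279 UMIs. The 2 libraries differed in quality: the mitochondrial limit left out 45.6% of ND barcodes and 79.9% of HFD barcodes, and the median kept cell had 3732.5 UMIs in ND and 5336 in HFD. Cells were sorted into types by counted marker genes, none of them a member, which gave 2283 ND and 1147 HFD endothelial cells, 913 and 333 fibroblasts, 343 and 490 macrophages, and 45 and 66 dendritic cells. Monocytes (39 ND, 20 HFD), neutrophils (76, 9), B cells (492, 6) and T cells (286, 26) had too few HFD cells for a comparison of diets. For each of the 4 types compared, 4 further markers were kept aside, and their level in the type was set against that in the other types together. All 4 were higher in their own type for endothelial cells, fibroblasts and macrophages, and 3 of 4 for dendritic cells. The exception was Zbtb46, at 33.6 CPM in dendritic cells against 50.7 in ND, and 33.2 against 59.6 in HFD. Barcodes with markers of more than 1 compartment, 627 in ND and 509 in HFD, were set aside in place of a doublet caller, and 39 barcode sequences occurred in both libraries, 1 of them among kept cells.

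Levels are the UMIs of a gene divided by all UMIs of the cells concerned and scaled to a total of 1000000 (CPM), without correction for gene length, so levels were compared between cell types for 1 gene and not between genes. In ND, endothelial cells had the highest level of more members than any other of the 4 types present in number in both diets: 29 of the 54 members counted well enough to rank, or 53.7%, where 32.1% of all ranked genes were highest in endothelial cells. Macrophages were highest for 15 members (15.9% of all genes), dendritic cells for 8 (16.8%) and fibroblasts for 2, Ifi27 and Ifitm10 (35.1%). With monocytes, neutrophils, B, T and mural cells added, endothelial cells led 23 of 57 ranked members (15.6% of all genes) neutrophils 9 (6.05%), monocytes 7 (8.13%), macrophages 5 (7.11%), dendritic cells 5 (6.89%), T cells 5 (10.4%), B cells 2 (6.88%), fibroblasts 1 (18.1%) and mural cells 0 (20.8%). In HFD the order was flatter. Endothelial cells led 20 of 51 members (32.8% of all genes), fibroblasts 12 (30.9%), macrophages 11 (18.8%) and dendritic cells 8 (17.6%). With every cell thinned to 1000 UMIs the HFD counts became 13, 5 and 6 for endothelial cells, fibroblasts and macrophages, with fewer members left to rank.

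**Figure D1:**
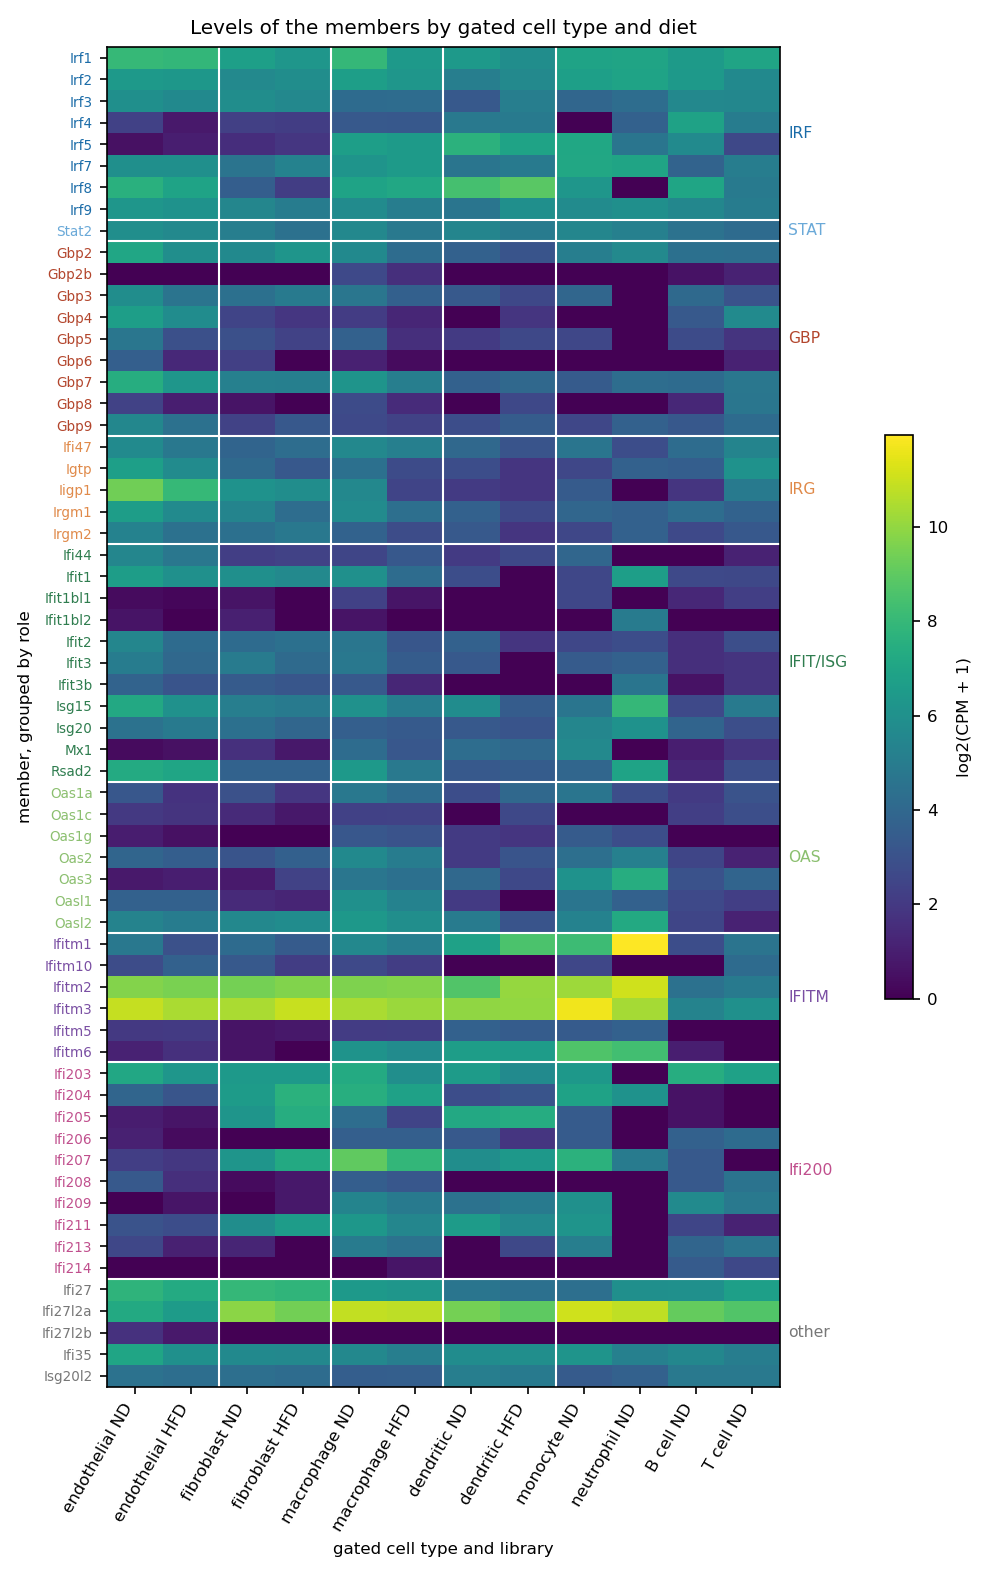
Levels of 62 members, one per row and grouped by role, in cell types gated by markers (columns, ND and HFD where both had enough cells); the colour scale is log2 of CPM plus 1. Iigp1, Gbp4, Gbp7 and Igtp were highest in the endothelial ND column, Ifi207 in macrophages, Ifitm1 in neutrophils and Irf8 in dendritic cells.

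Among the immunity-related GTPases, Iigp1 was the member that set endothelial cells most apart. Its ND level was 668 CPM (653 to 684) in endothelial cells, 67.2 in fibroblasts, 47.4 in macrophages, 29.8 in T cells and 2.57 in B cells, and no UMI of it was counted in ND neutrophils, where 3 UMIs would be 18.2 CPM. Over both diets together, its endothelial level was 4.79 times that of all other kept cells (508 against 106 CPM). Here and in the like ratios below, the other cells include the barcodes with markers of more than 1 compartment. At 1000 UMIs a cell, 39.3% of ND endothelial cells had an Iigp1 UMI (61.8% before thinning, median depth 3436), against 0 of 492 B cells (exact 95% upper limit 0.747%, and 1.02% before thinning, median depth 3391), the type taken here as the background that free RNA gives. Igtp, another GTPase of the family, stood at 106 CPM in ND endothelial cells and 68.4 in T cells.

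The guanylate-binding proteins Gbp4 and Gbp7 were also higher in endothelial cells than in fibroblasts, macrophages or T cells, though the order after endothelial cells differed from that of Iigp1. Gbp4 was 102 CPM in ND endothelial cells, 51.0 in T cells and under 10 in fibroblasts and macrophages. Gbp7 was 174 CPM in endothelial cells, 72.0 in macrophages and 35.8 in fibroblasts. Gbp8 was instead highest in T cells, at 10.4 times its level in other cells over both diets together.

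The IRF factors were spread over cell types rather than gathered in one. Irf1, a factor induced by interferon gamma, was at 257 CPM in endothelial cells and 246 in macrophages, a difference within their counting intervals, and at 105 in fibroblasts. Among types with at least 30 ND cells, Irf8 was highest in dendritic cells at 349 CPM (288 to 419), followed by endothelial cells at 191 (183 to 199), B cells at 131 and macrophages at 120, with fibroblasts at 11.0. Irf4, a factor of B cells and plasma cells, was 119 CPM in ND B cells, and over both diets together its level in B cells was 13.1 times that in other cells. Irf5 was at 208 CPM in dendritic cells, 136 in monocytes and 102 in macrophages, and at 0.466 in endothelial cells. Irf7, which drives type I interferon production, was highest in monocytes at 141 CPM and neutrophils at 127, with 61.8 in endothelial cells.

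Most well counted Ifi200 genes were higher in myeloid cells and fibroblasts than in endothelial cells. Ifi207 was 533 CPM (499 to 568) in ND macrophages, 204 in monocytes, 74.9 in fibroblasts and 3.64 in endothelial cells. Ifi204 was 178 CPM in macrophages and 94.2 in fibroblasts. Ifi205 was 150 CPM in dendritic cells and 74.1 in fibroblasts but 0.932 in endothelial cells. Ifi203 alone among the well counted genes of the family was abundant in endothelial cells too, at 141 CPM.

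Several effectors and IFITM genes had their highest ND levels in neutrophils or monocytes. Ifitm1 was 3979 CPM in ND neutrophils and 292 in monocytes, and over both diets together its neutrophil level was 71.4 times that in other cells (3397 against 47.5 CPM). Ifitm6 was 404 CPM in monocytes and 328 in neutrophils. Ifitm3, the member with the most UMIs in endothelial cells at 1934 CPM, reached 3343 in monocytes and was 40.0 in B cells. Isg15 was 249 CPM in neutrophils and 149 in endothelial cells, and Oas3 was 176 in neutrophils, 68.1 in monocytes and 0.746 in endothelial cells. Ifi27l2a, a small mitochondrial protein gene, was 2194 CPM in monocytes, 1881 in macrophages, 1771 in neutrophils, 927 in fibroblasts and 152 in endothelial cells. Rsad2 was 156 CPM in endothelial cells, 121 in neutrophils and 87.4 in macrophages.

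In endothelial cells most members were lower in HFD than in ND. Of the 49 members with at least 50 UMIs over both libraries, 18 were at least 2-fold lower in HFD, where 6.89% of the 10573 genes so counted were, and 1, Ifitm10, was at least 2-fold higher (1.44% of genes). The median log2 ratio of HFD to ND was -0.86 for the members and -0.18 for all genes, and 46 of the 49 members were lower, or 93.9% against 70.0% of genes. Scaling by the median of ratios raised every endothelial log2 ratio by 0.17 and left 40 members lower and 9 higher; totals without mitochondrial, haemoglobin and ribosomal protein genes raised it by 0.13 and left 42 lower. The quality of the cells moved with diet. Mitochondrial genes held 14.3% of endothelial UMIs in ND and 19.9% in HFD, haemoglobin genes 0.591% and 4.03%, and the median cell had 3436 and 5246 UMIs. Their part in the ratios was not tested. Of the 19 members past 2-fold, 13 stayed past it and all 19 kept their direction under every alternative scaling, gate, mitochondrial limit or weighting of cells that gave them a value. Markers of neutrophils, the cells richest in several members, summed to 24.1 CPM in ND endothelial cells and 22.3 in HFD ones.

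**Figure D2:**
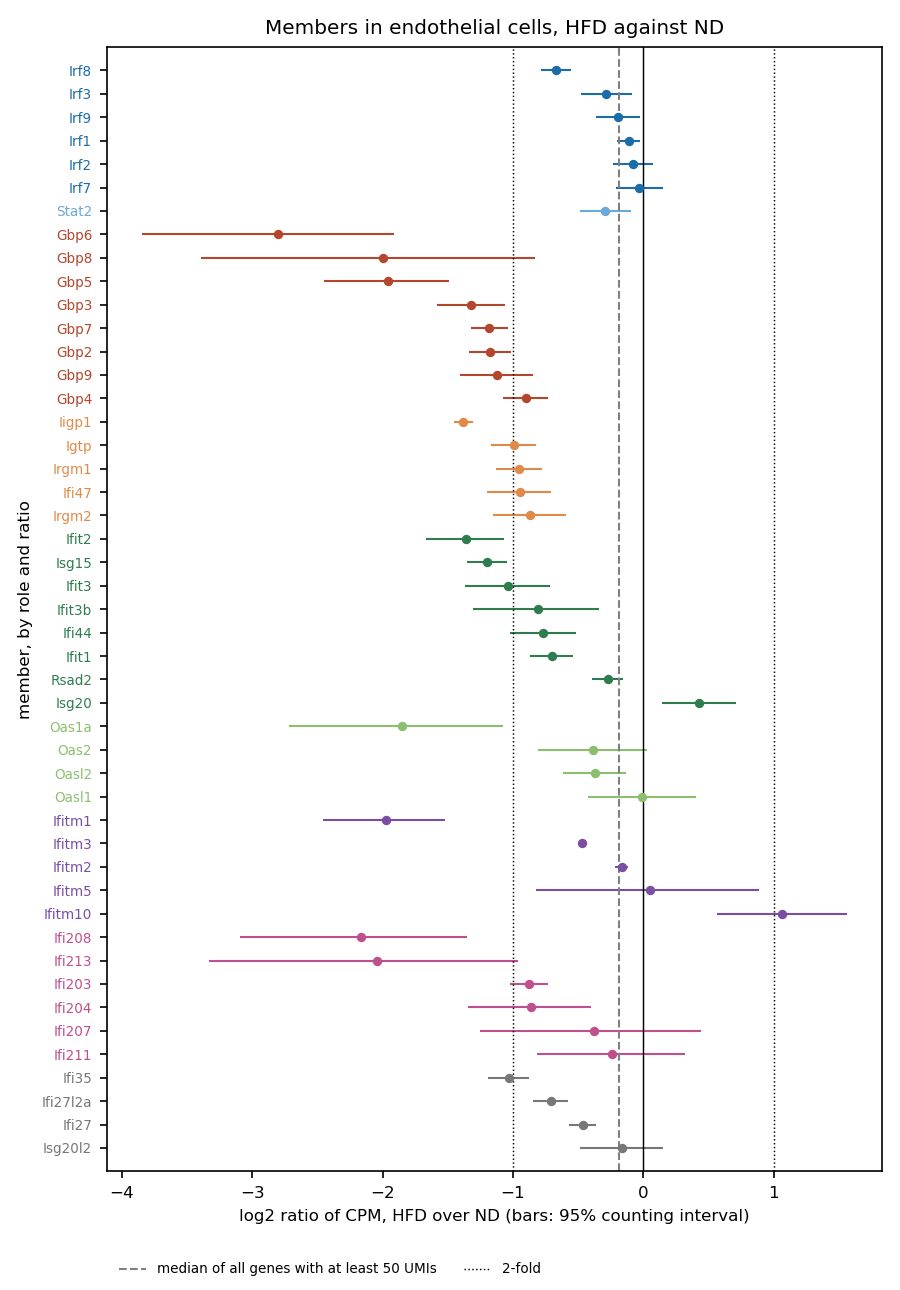
Log2 ratio of HFD to ND in gated endothelial cells for 47 members with at least 50 UMIs, coloured by role, with 95% counting intervals. The dashed line is the median of all genes, -0.18, and dotted lines mark 2-fold; 44 of the 47 lie below 0, with Gbp6 lowest at -2.80 and Ifitm10 highest at 1.06.

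Both families of large GTPases were lower in HFD throughout. All 8 guanylate-binding proteins counted were lower in HFD, 7 of them at least 2-fold, with a median log2 ratio of -1.25. Gbp7 went from 174 CPM in ND to 76.6 in HFD, a log2 ratio of -1.18 (-1.33 to -1.04). Gbp2 went from 132 to 58.6 CPM, also -1.18 (-1.34 to -1.01). Gbp6 was the lowest ratio of all members, at 11.3 and 1.61 CPM, but rested on 121 and 11 UMIs (log2 ratio -2.80, -3.84 to -1.91). Gbp5, a member linked to inflammasome assembly, was at 25.1 and 6.46 CPM, and Gbp4 was the one member short of 2-fold, at 102 and 54.6 CPM. The UMIs of all guanylate-binding proteins together were at 552 CPM in ND and 243 in HFD.

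All 5 immunity-related GTPases were lower as well, Iigp1 by more than 2-fold. Iigp1 was at 668 CPM in ND and 257 in HFD, a log2 ratio of -1.38 (-1.46 to -1.30) from 7168 and 1749 UMIs. The share of cells with an Iigp1 UMI at 1000 UMIs a cell was 39.3% (37.2 to 41.3) in ND and 17.9% (15.7 to 20.2) in HFD. Igtp was at 106 and 53.4 CPM, Irgm1 at 101 and 52.1, Ifi47 at 52.1 and 27.0, and Irgm2 at 38.1 and 20.8, so that the 4 other genes had log2 ratios in the narrow range from -0.99 to -0.87.

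Most of the signalling factors described differed little. Stat2, a factor of the type I response, was at 58.8 CPM in ND and 48.0 in HFD (-0.29, -0.49 to -0.10). Irf1 was at 257 CPM in ND and 237 in HFD (-0.11, -0.20 to -0.02), and its sign turned under median-of-ratios scaling, at 0.06. Irf7 was at 61.8 and 60.5 CPM (-0.03, -0.21 to 0.15), Irf2 at 84.4 and 79.9, and Irf9 at 76.3 and 66.8. Irf8 was lower, at 191 and 120 CPM (-0.67, -0.79 to -0.55). The median ratio of the 7 IRF genes counted was -0.19, near the -0.18 of all genes.

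The IFIT, ISG and related effectors were uneven. Isg15 was at 149 CPM in ND and 64.7 in HFD (-1.20, -1.35 to -1.05), and Ifit2 at 44.6 and 17.3 (-1.36). Ifit1 was at 101 and 62.1 CPM (-0.70), and Rsad2 at 156 and 129 (-0.28, -0.40 to -0.16), so that members of one induced set ranged from near the median of all genes to beyond 2-fold lower. Isg20, an RNA exonuclease, was the one effector of 8 that was higher, at 21.6 and 29.1 CPM (0.43, 0.15 to 0.71). Among other members, Ifi35 was at 130 and 63.6 CPM (-1.03), Ifi203 at 141 and 76.6 (-0.88), Ifi27l2a at 152 and 93.1 (-0.71) and Ifi27 at 219 and 158 (-0.47). The 4 oligoadenylate synthetase genes counted had a median of -0.38.

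The abundant IFITM genes differed less, and Ifitm1 rested on few cells. Ifitm3 was at 1934 CPM in ND and 1398 in HFD (-0.47), and Ifitm2 at 851 and 758 (-0.17), a ratio that median-of-ratios scaling brought to 0.00. Ifitm1 was at 26.6 and 6.75 CPM (-1.98), but the 5 highest cells held 85.6% of its ND UMIs and 78.3% of its HFD UMIs, 83 of them in 1 ND cell. As a mean over cells its log2 ratio was -0.33.

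Members were also lower in HFD within subsets of the endothelial cells. Subsets were gated by further genes, with 162 ND and 60 HFD luminal cells (Vwf and Vcam1 without Gpihbp1), 345 and 248 arteriolar cells (at least 2 of Stc1, Hey1 and Sema3g), 1060 and 224 capillary cells with a Cxcl9 UMI, and 776 and 647 capillary cells without one. Cxcl9 is itself induced by interferon gamma, so the last 2 subsets are split by a gene of the same response. Only the capillary cells without a Cxcl9 UMI were required not to be arteriolar. The subsets therefore overlap, some cells count in more than 1 of them, and likeness between subsets rests in part on the same cells. Members at least 2-fold lower numbered 19 of 38 counted in arteriolar cells (5.20% of genes), 15 of 42 in Cxcl9-positive capillary cells (6.95%), 16 of 39 in the other capillary cells (5.69%) and 6 of 29 in luminal cells (3.93%). Members at least 2-fold higher numbered 0 in the first 3 of these (1.39%, 1.58% and 1.56% of genes) and 1, Ifi27l2a, in luminal cells (2.22%). The members' medians were -1.003, -0.67, -0.90 and -0.33, against -0.12, -0.15, -0.18 and -0.03 for all genes.

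Iigp1 was lower in HFD by a like ratio in each of these partly overlapping subsets, from different levels. It was at 847 and 365 CPM in Cxcl9-positive capillary cells, 634 and 248 in other capillary cells, 596 and 237 in arteriolar cells and 204 and 82.4 in luminal cells, with log2 ratios between -1.35 and -1.22. Gbp7 was at 155 to 186 CPM in the 4 subsets in ND and at 66.0 to 96.4 in HFD, so its ranges did not overlap. Gbp2 was at 117 to 127 CPM in ND and 44.3 to 62.9 in HFD in the arteriolar and capillary subsets, and at 218 and 173 in luminal cells (-0.33, -0.70 to 0.02). Irf1 was nearly level between diets in the capillary and arteriolar subsets, with 308 and 315 CPM in Cxcl9-positive capillary cells.

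Luminal cells had low levels of the effectors and of Irf8. In ND, Isg15 was at 28.2 CPM, Rsad2 at 4.84 and Irf8 at 16.9 in luminal cells, where the other 3 subsets had 131 to 182, 171 to 186 and 171 to 254 CPM. In these cells the families of GTPases were lower in HFD, as in the others, with all 5 immunity-related GTPases lower and 4 of them at least 2-fold (Igtp at 128 and 44.2 CPM). The 3 IFIT, ISG and related effectors counted there were not lower, with Ifit1 at 33.9 and 66.3 CPM (0.97, 0.26 to 1.66) from 42 and 33 UMIs.

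**Figure D3:**
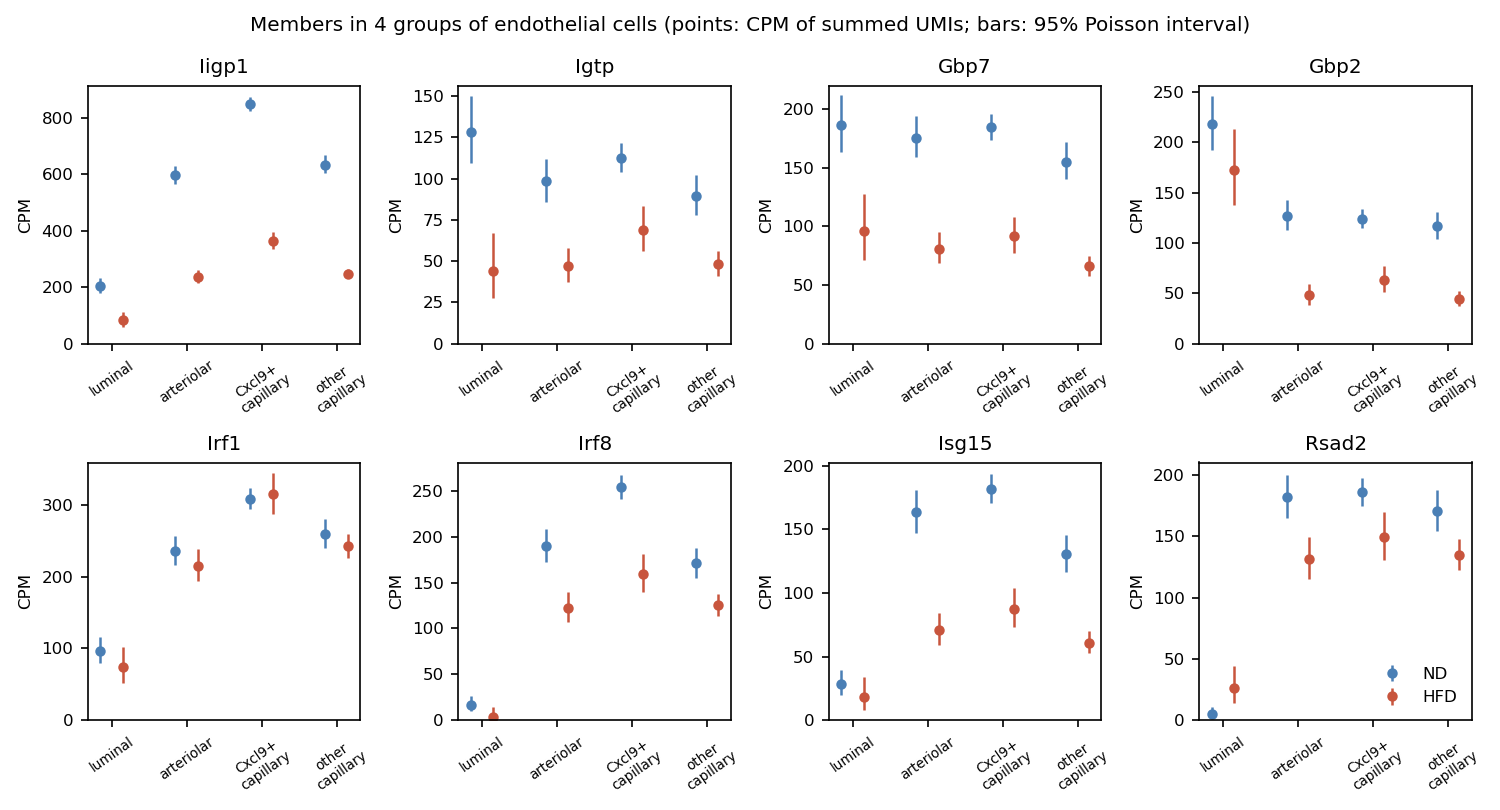
CPM of 8 members in 4 gated, partly overlapping endothelial subsets (luminal, arteriolar, capillary with and without a Cxcl9 UMI), ND beside HFD, with 95% counting intervals. Iigp1, Igtp and Gbp7 were lower in HFD in each subset, Gbp2 in each with overlapping luminal intervals, Irf1 was nearly level in 3 of 4, and Isg15, Irf8 and Rsad2 were low in luminal cells.

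Cells with many effector UMIs also had more of the GTPase RNAs, in either diet. Endothelial cells were divided by their summed UMIs of the 5 effector genes Ifit1, Ifit2, Ifit3, Isg15 and Rsad2 into 934 ND and 484 HFD cells with none, 731 and 397 with 1 to 2, and 618 and 266 with 3 or more. Deeper cells fall more often into the upper class (median depth 2752, 3369 and 5432 UMIs in ND, and 4824, 5299 and 6121 in HFD), and the levels are CPM within each class. Iigp1 was at 459, 644 and 846 CPM in the 3 classes in ND and at 179, 243 and 376 in HFD. Within each class the HFD level was therefore below the ND level, and HFD cells with 3 or more effector UMIs had less Iigp1 than ND cells with none. Gbp7 showed a like order, at 131, 161 and 216 CPM in ND and 49.4, 81.0 and 107 in HFD. Gbp2 was at 96.7, 128 and 162 CPM in ND, and at 41.2, 41.6 and 102 in HFD, where only the highest class stood apart.

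Irf1 and Irf7 were higher in the classes with more effector UMIs, in both diets. Irf1 was at 195, 227 and 326 CPM in ND and at 192, 229 and 308 in HFD. Irf7 was at 41.0, 53.2 and 84.2 CPM in ND and 37.3, 51.4 and 102 in HFD. In each pair the counting intervals of the diets overlapped. Ifi27 did not follow the classes, at 225, 214 and 217 CPM in ND and 162, 148 and 165 in HFD.

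**Figure D4:**
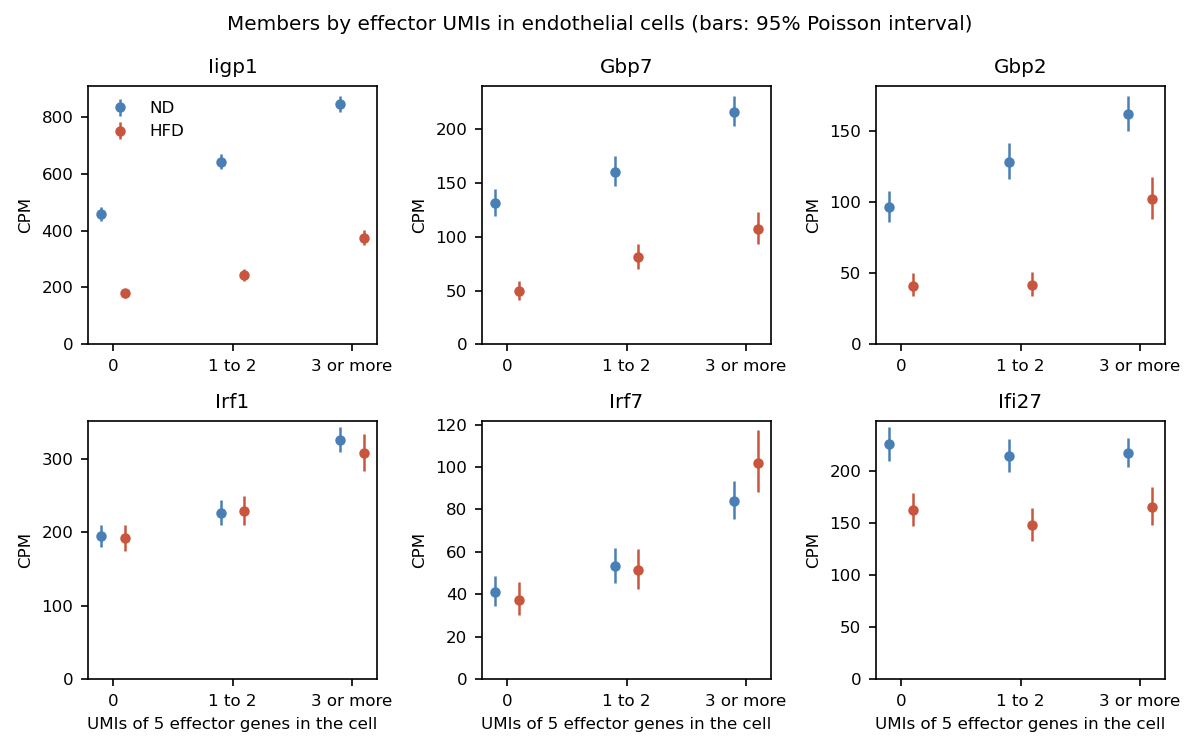
CPM of 6 members in endothelial cells with 0, 1 to 2, and 3 or more summed UMIs of Ifit1, Ifit2, Ifit3, Isg15 and Rsad2 (horizontal axis), for ND and HFD, with 95% counting intervals. Iigp1, Gbp7 and Gbp2 were lower in HFD in each class, the Irf1 and Irf7 intervals of the 2 diets overlapped, and Ifi27 was flat over the classes.

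In macrophages, too, most members were lower in HFD. Of 43 members counted, 15 were at least 2-fold lower in HFD (5.33% of 7276 genes) and 0 at least 2-fold higher (3.42%), with a median log2 ratio of -0.59 against -0.09 for all genes. In all, 38 of 43 were lower (88.4% against 57.2% of genes), and 35 under median-of-ratios scaling. Of the 15, 9 stayed past 2-fold under every alternative that gave them a value, but only 16 members kept enough UMIs when cells were thinned, and 2 of these were then at least 2-fold lower. The share of all genes at least 2-fold lower in thinned cells is not given here, so these 2 cannot be set against it. Mitochondrial genes held 15.2% of macrophage UMIs in ND and 18.2% in HFD, and neutrophil markers summed to 227 and 122 CPM. Their part in the ratios was not tested.

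The 15 members at least 2-fold lower in macrophages were 6 effectors, 3 immunity-related GTPases, 3 guanylate-binding proteins, Irf1 and the Ifi200 genes Ifi203 and Ifi207. Iigp1 went from 47.4 to 4.40 CPM (-3.43, -4.33 to -2.63) on 83 and 15 UMIs, and was -2.002 when barcodes with markers of more than 1 compartment were placed. Gbp2, at 49.7 and 17.9 CPM (-1.47), Gbp3 and Gbp7, the 3 guanylate-binding proteins counted, were all at least 2-fold lower. Ifit1 was at 62.3 and 17.9 CPM (-1.80), Rsad2 at 87.4 and 27.9 (-1.65) and Isg15 at 65.1 and 31.1 (-1.07). These effector UMIs sat in few cells: in ND, 5 of 343 macrophages held 60.1% of Rsad2, 56.0% of Ifit1 and 43.9% of Isg15. Without the 5 highest cells of each library, the log2 ratios were -0.87 for Rsad2, -1.30 for Ifit1 and -0.54 for Isg15, and 8 members in place of 15 were at least 2-fold lower. For that setting, too, the share of all genes is not given here.

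Irf1 in macrophages, unlike in endothelial cells, was lower: 246 CPM in ND and 86.8 in HFD (-1.50, -1.72 to -1.28), and -0.89 with thinned cells. Irf7 and Irf8 stood a little higher in HFD, at 72.6 and 89.5 CPM (0.30, -0.00 to 0.61) and at 120 and 144 CPM (0.26, 0.03 to 0.50). Of the Ifi200 genes, Ifi207 was at 533 and 242 CPM (-1.14) and Ifi203 at 157 and 59.6 (-1.39), with Ifi204 at 178 and 115 (-0.63).

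The kinds of macrophage differed between the libraries. Cells with at least 2 of Lyve1, Folr2, Cbr2 and F13a1, markers of resident macrophages, numbered 240 in ND and 211 in HFD, and cells with at least 2 of the foam cell markers Gpnmb, Trem2 and Spp1 numbered 5 and 153. The HFD foam cells had 144 CPM of Ifi207 and 346 of Ifi27l2a. Within the resident cells the members' median was -0.26 (all genes -0.10), 9 of 36 were at least 2-fold lower (2.92% of genes) and 0 at least 2-fold higher (1.01%). Members lower by any amount numbered 25 of 36 there, or 69.4% against 60.8% of genes, a smaller gap than in all macrophages. There Irf1 was at 275 and 109 CPM (-1.34), Rsad2 at 109 and 44.6, Iigp1 at 52.2 and 11.6 and Ifi207 at 628 and 403 (-0.64). Ifi27l2a and Ifitm2 were higher in resident cells of HFD, at 2192 and 3418 CPM (0.64) and at 950 and 1542 CPM (0.70).

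In fibroblasts the members did not move together. Of 34 counted, 1 was at least 2-fold lower (5.18% of 8462 genes) and 3 at least 2-fold higher (1.17%), and the median log2 ratio was -0.04 against -0.16 for all genes. Members lower in HFD numbered 19 of 34, or 55.9% against 67.5% of genes. Under the other 2 scalings 15 and 12 were lower. These scalings raised the ratios of all genes alike by 0.13 and 0.18, which brought the median of all genes to -0.03 and 0.02. Mitochondrial genes held 13.5% of fibroblast UMIs in ND and 21.4% in HFD, and the 7 monocyte markers of the gate for that type summed to 438 and 843 CPM in fibroblasts. Their part in the ratios was not tested.

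The 3 members at least 2-fold higher in fibroblasts were Ifi200 genes. Ifi205 was at 74.1 CPM in ND and 174 in HFD (1.23, 0.98 to 1.49), Ifi204 at 94.2 and 198 (1.07, 0.84 to 1.31) and Ifi207 at 74.9 and 152 (1.02, 0.75 to 1.28). Ifi211 was at 57.6 and 96.5 CPM (0.74) and Ifi203 at 87.1 and 85.5, so 4 of the 5 counted were higher. The share of fibroblasts with an Ifi205 UMI at 1000 UMIs a cell was 5.81% in ND and 16.2% in HFD. At the limit of 20% mitochondrial UMIs no member stayed past 2-fold higher, with Ifi205 at 0.73. Ifitm3 was higher too, at 1402 and 1952 CPM (0.48), and Gbp2 at 50.1 and 74.4 (0.57, 0.21 to 0.92).

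Other fibroblast members were lower or level. Irgm1 was at 41.1 and 18.6 CPM (-1.14, -1.79 to -0.54) on 149 and 27 UMIs, and was -0.36 with 1 marker more required in the gate. Irf1 was at 105 and 75.8 CPM (-0.47). Iigp1 was at 67.2 and 57.9 CPM, a difference within counting error.

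Dendritic cells were few, and 13 members could be compared. Mitochondrial genes held 10.9% of dendritic UMIs in ND and 20.3% in HFD, and the 7 monocyte markers summed to 373 and 581 CPM, whose part in the ratios was not tested. Of the 13 members, 0 were at least 2-fold lower (3.20% of 1593 genes) and 2 were at least 2-fold higher (2.95%), Ifitm1 and Ifitm2. No IFIT, ISG or related effector and no large GTPase had enough UMIs to be among them. Summed, the effectors had 40 UMIs in ND and 20 in HFD, at 122 and 51.1 CPM (-1.26, -2.11 to -0.45). The immunity-related GTPases had 15 and 8 (-1.16, -2.61 to 0.16) and the guanylate-binding proteins 14 and 20 (0.26, -0.80 to 1.35). Ifitm1 was at 113 CPM in ND and 373 in HFD (1.72), with 39 of its 146 HFD UMIs in 1 cell, and its log2 ratio was -0.058 at the limit of 20% mitochondrial UMIs. Ifitm2 was at 419 and 1082 CPM (1.37). Irf8, which dendritic cells need for their development, was at 349 and 481 CPM (0.46, 0.12 to 0.81), and Irf5 at 208 and 120 (-0.79, -1.36 to -0.23).

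**Figure D5:**
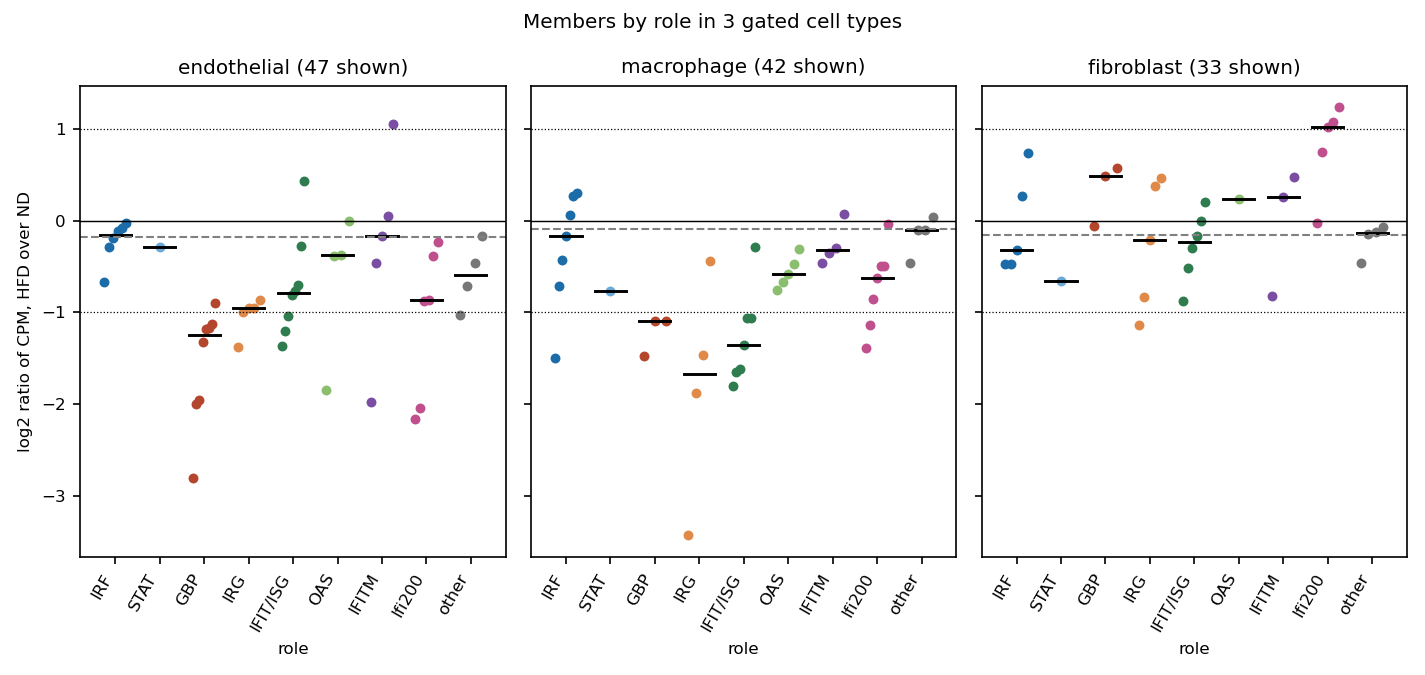
Log2 ratio of HFD to ND for members with at least 50 UMIs, by role (horizontal axis), in gated endothelial cells (47 shown), macrophages (42) and fibroblasts (33); black bars are role medians of the members shown and dashed lines the median of all genes. The guanylate-binding proteins had medians of -1.25, -1.10 and 0.49, and the Ifi200 genes -0.87, -0.63 and 1.02.

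Members with the response element core in the promoter had lower median ratios than members with neither motif in endothelial cells and macrophages. In endothelial cells the 22 counted members with the core had a median log2 ratio of -0.92, the 12 with a GAS match -0.93 and the 11 with neither -0.19. In macrophages the medians were -1.08 for 20 members with the core, -0.46 for 11 with GAS and -0.45 for 10 with neither. In fibroblasts the order was the reverse, with medians of 0.13 for 18 members with the core, -0.06 for 9 with GAS and -0.15 for 7 with neither. Members of 1 family share both promoter letters and ratios, so these medians describe families as much as motifs.

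Genes of the pathway outside the symbol rule were read from lists. In the 4 types compared, interferon genes themselves were under the count limit. Ifnb1 had 4 ND and 19 HFD UMIs in macrophages, and no UMI of a listed interferon gene was counted in the other 3 types compared. T cells (286 in ND, 26 in HFD) and NK cells (12 and 2) were not among these types. Receptors and JAK kinases numbered 8 counted in endothelial cells, none past 2-fold and all 8 lower (median -0.29). Of all endothelial genes counted, 70.0% were lower and 6.89% at least 2-fold lower, with a median of -0.18, so the receptors stood near genes at large. None of 10 sensors and adaptors and none of 7 negative regulators was past 2-fold there.

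Of 29 other interferon-induced genes in endothelial cells, 26 were lower and 7 at least 2-fold lower, where 70.0% and 6.89% of all genes were. Cxcl9, a chemokine ligand of CXCR3, was at 318 CPM in ND and 51.5 in HFD (-2.63), and Cxcl10, of the same receptor, at 51.3 and 11.7 (-2.13). Psmb9, an immunoproteasome subunit, was at 131 and 46.1 CPM (-1.51), Nlrc5, the activator of MHC class I genes, had a log2 ratio of -1.15, and the others were Zbp1, Samhd1 and Cd274. B2m, the light chain of MHC class I, was at 3165 and 2031 CPM (-0.64), while Trim25 was higher, at 104 and 185 CPM (0.84). In macrophages 3 of 29 were at least 2-fold lower (5.33% of all genes), Cmpk2 (48.0 and 8.51 CPM), Cxcl10 (323 and 95.9 CPM) and Herc6, and 2 of 8 negative regulators were, Usp18 at 17.7 and 7.04 CPM (-1.33) and Socs3 at 287 and 123 (-1.23). Of 12 sensors and adaptors in macrophages, Tlr3 alone was at least 2-fold lower, at 18.3 and 7.92 CPM (-1.21). In fibroblasts 8 of 26 other interferon-induced genes were lower, against 67.5% of all genes, with Cxcl10 at least 2-fold lower and Zbp1 at least 2-fold higher.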

How the data were processed

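The authors sequenced 1 library per diet and deposited raw UMI counts per gene and barcode, made with Cell Ranger 3.0.1 per the file headers and without normalization. The submitters' processing notes also name mm10, bcl2fastq, UMI-tools, Seurat 3.2.0 and R 4.0.0. Barcodes with fewer than 200 genes or 200 UMIs, or with over 30% of UMIs from mitochondrial genes, were left out. Cells were typed by counted markers (at least 2 to 4 per type). UMIs were summed per type and library and divided by all UMIs, as CPM. Ratios were compared for genes with at least 50 UMIs, and 2-fold was taken as the limit. Intervals are 95%: exact Poisson for levels, exact Clopper-Pearson for shares and conditional binomial for ratios. Thinning drew 1000 UMIs a cell. A count of 0 was limited at 3 UMIs. Alternatives were other count limits, scalings, folds, mitochondrial limits, gates and weights of cells.

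The members and lists were chosen with earlier results of these data known. Members are named if they had at least 500 UMIs, were among the 3 with the highest ratio to other cells in a type, or among the 3 largest rises or falls between diets in a type, along with examples of each role. Counts and medians cover all members, but 2 members are not reported individually or plotted here. The promoter stretches, subsets and effector classes were chosen for this description. The scripts were tested on simulated data. Python 3.11.15 was used, with pandas 2.3.3, numpy 2.4.6, scipy 1.17.1 and, for plots, matplotlib 3.10.9.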

Additional observations from a re-analysis of the deposited data

Results flagged for a closer look

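For 2 members HFD was at least 2-fold higher than ND in 1 cell type and at least 2-fold lower in another. Other members, such as Gbp2 and Ifitm3, also differed in sign between endothelial cells and fibroblasts, but were not past 2-fold in both. Ifi207 had a log2 ratio of 1.02 in fibroblasts and -1.14 in macrophages. Ifitm1 had a log2 ratio of 1.72 in dendritic cells and -1.98 in endothelial cells, and in both of these types few cells held most of its UMIs. With 1 library per diet these differences between cell types were not tested.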

How the results depend on the processing

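No paired analysis was possible because each diet is 1 library, and for the same reason no replicate could be left out. Of 185 counts and medians recomputed under alternatives, 155 stayed near their value. The counts below are given without the share of all genes past the same limit. That share also changes with the setting, so the counts show only how the calls depend on the processing. With 1.5-fold as the limit, 30 endothelial members were lower in place of 18, 5 fibroblast members lower and 5 higher in place of 1 and 3, and 4 dendritic members lower in place of 0. With at least 1 UMI, 3 endothelial members were higher in place of 1, 6 fibroblast members lower and 5 higher, 23 macrophage members lower in place of 15, and 5 dendritic members lower and 5 higher in place of 0 and 2. With at least 100 UMIs, 9 macrophage members were lower. At 20% mitochondrial UMIs, 0 endothelial members were higher, 2 fibroblast members were lower and 0 higher, 0 dendritic members were higher, the macrophage median was -1.01 in place of -0.59, and dendritic Ifitm1 reversed to -0.058 (the cause was not tested). With 1 marker more, 0 endothelial members were higher and 1 dendritic member lower. With mixed barcodes placed, 0 endothelial members were higher, and 0 fibroblast members were lower and 1 higher. With thinned cells, which leaves fewer members to count, 0 endothelial members were higher, 2 macrophage members lower and 1 dendritic member higher, and in HFD endothelial cells, fibroblasts and macrophages led 13, 5 and 6 members. Totals without mitochondrial, haemoglobin and ribosomal protein genes left 0 fibroblast members lower, and the mean over cells gave 1 dendritic member lower. In 2 alternatives chosen after seeing the data, leaving out barcodes found in both libraries moved none of these counts by over 1.5 times, and leaving out the 5 highest cells per gene and library left 8 macrophage members lower. Of 1112 ratios of named members under alternatives, 978 moved by less than their counting interval, 133 by more, and 1 reversed.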

Other observations

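Cell types with very few cells held some of the highest levels of single members. Gbp2, a guanylate-binding protein, was at 388 CPM (234 to 606) in 10 mesothelial cells of ND and 680 CPM (462 to 965) in 11 of HFD. Oasl2 was at 347 and 329 CPM in the same cells. Irf8 was at 1137 CPM in 3 plasmacytoid cells of ND and 1225 CPM in 3 of HFD, on 13 and 19 UMIs, and at 1092 CPM (761 to 1519) in 12 NK cells of ND. In mural cells, 34 in ND and 12 in HFD, no UMI of Irf8 was counted in either diet, where 3 UMIs would be 18.4 and 60.1 CPM, and Iigp1 had 2 UMIs in ND and none in HFD.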
